A study of Mus musculus with 6 samples.

Results

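The TNF superfamily ligands Tnf, Ltb, Tnfsf8, Tnfsf9, Tnfsf10, Tnfsf12, Tnfsf13, Tnfsf13b, Tnfsf14 and Tnfsf15 were followed in mouse bone marrow-derived macrophages (BMDMs) 1 h after lipopolysaccharide (LPS), with Tnf set against the other 9. The 10 genes were chosen by symbol from the GENCODE M21 annotation, and all of them were among the 55335 genes of the count table. BMDMs are macrophages grown in culture from bone marrow in L929-conditioned medium, which supplies the macrophage growth factor M-CSF. The cells came from C57BL/6 mice with no other allele in the labels. 3 libraries were from cells given PBS for 1 h (PBS) and 3 from cells given LPS for 1 h (LPS). The labels give neither the LPS dose nor the age or number of the mice. The libraries are numbered 1 to 3 in each group, and these numbers are called batches here. Nothing says whether a number stands for a separate animal or culture, so the p-values measure the spread between these samples, which may be technical.

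Ligands of this family are made as transmembrane proteins that assemble into trimers, and several, Tnf among them, are also released by proteolytic cleavage. They bind receptors of the TNF receptor superfamily, which signal through TRAF adaptors or through death domains. In macrophages, LPS engages Toll-like receptor 4, which activates NF-kB and MAP kinases, and Tnf is the best known early product of that response. Several other ligands of the family act on lymphocytes: Tnfsf9 (4-1BBL), Tnfsf8 (CD30L), Tnfsf14 (LIGHT) and Tnfsf15 (TL1A) give costimulatory signals to T cells, whereas Tnfsf13 (APRIL) and Tnfsf13b (BAFF) sustain B cells and plasma cells.

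The libraries held 37787611 to 41516330 counted reads. The macrophage markers fixed for the check (Adgre1, Csf1r, Cd68, Itgam, Lyz2, Mertk, Fcgr1 and Cd14) summed to 29946 to 31229 CPM (read counts scaled to a common library size) in the PBS libraries and 35886 to 36245 CPM in the LPS libraries, so the labelled cell type carried its markers. Marker lists of other cell types were summed in the same way. The 6 T cell genes summed to 20.6 to 22.6 CPM in PBS and 30.8 to 31.1 CPM in LPS, nearly all of it Cd4 (927 to 1025 reads in every library), whereas Cd3d, Cd3e and Cd3g held 2 to 9 reads. The neutrophil list was at 33.6 to 35.8 CPM in PBS and 44.3 to 46.2 CPM in LPS, and the fibroblast list at 13.5 to 14.6 and 15.2 to 17.6 CPM. B cell markers summed to 2.61 to 2.92 CPM in PBS and 2.62 to 3.40 CPM in LPS, most of it Cd79b. The NK cell, mast cell and erythroid lists stayed at or under 1.10 CPM in every library. The 4 dendritic cell markers (Flt3, Zbtb46, Xcr1 and Siglech) summed to 3.15 to 4.01 CPM in PBS and 9.62 to 10.6 CPM in LPS. All 4 were called higher, beside 10.5% of all tested genes. Of these 4, Xcr1 passed the filter only through LPS and had to differ. Siglech (log2 fold change 1.07) was not called with library size alone (0.67) or upper quartile scaling (0.93). The part of these other cell types in the results was not tested. CPM here use library sizes scaled by TMM (trimmed mean of M-values), and CPM per kb divides them by the length of a gene's merged exons. In bulk RNA, a change in the number of cells making a transcript and a change in its amount per cell cannot be told apart.

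Among these 10 ligands, Tnf and Tnfsf9 rose most. Tnf increased 114-fold and Tnfsf9 494-fold, so that Tnfsf9 went from the sixth to the second most abundant of the 10 ligands per exon length. Tnfsf14 rose 6.48-fold and Tnfsf15 rose 3.01-fold, whereas Tnfsf8 fell to 41.0% of its PBS level. A gene was called changed where the log2 fold change exceeded 1 in size and the adjusted p was under 0.05 in edgeR's quasi-likelihood test. All 10 ligands passed the filter on low counts, each in both groups separately. The list was chosen with earlier results of these data known, so this passing is no independent result. Of the 10 ligands, 4 were called up and 1 down, beside 10.5% of the 15687 tested genes called up and 10.4% called down. By adjusted p alone, 7 ligands passed, a share near the 67.7% of all tested genes. Of these 7, 5 were higher and 2 lower, where 32.9% and 34.9% of all tested genes were higher and lower. PBS and LPS values did not overlap for 8 of the 10, beside 70.5% of all tested genes. The median log2 fold change of the 10 was 0.39, and that of all tested genes was -0.01.

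**Figure D1:**
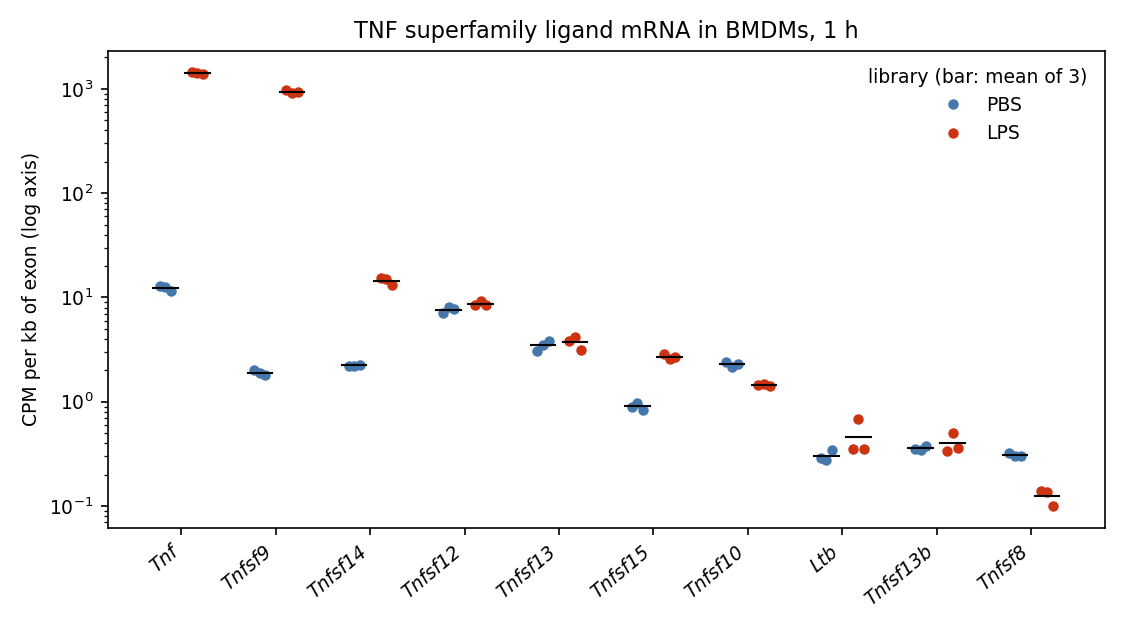
Level of each of the 10 ligands in CPM per kb of exon on a log axis, with a point for each of the 3 PBS (blue) and 3 LPS (red) libraries and a bar at the group mean. Tnf and Tnfsf9 stand near each other only in the LPS libraries, with means of 1405 and 941 CPM per kb, and the other 8 ligands stay at or under 15.3 CPM per kb.

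Tnf encodes tumour necrosis factor, a cytokine that acts on most cell types through Tnfrsf1a and Tnfrsf1b. The gene lies on the minus strand of chromosome 17 (35199381-35202007, GRCm38), between Ltb, 3.1 kb away, and Lta, 1.2 kb away. Tnf was covered by 1007, 935 and 872 reads in the PBS libraries and by 78981, 75054 and 76710 reads in the LPS libraries. Its mean level was 20.2 ± 1.19 CPM in PBS and 2302 ± 49.8 CPM in LPS (SD, n = 3 each), and every LPS library lay far above every PBS library. The log2 fold change was 6.83 (SE 0.05, edgeR adjusted p = 4.99e-24), which ranked 88 among the tested genes from the highest. Within batches 1, 2 and 3 the log2 difference was 6.80, 6.80 and 6.90. Each SE given with an edgeR adjusted p is the absolute log2 fold change divided by the square root of the test's F statistic. Such an SE can come out too small where a large change rests on few PBS reads.

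Tnfsf9, or 4-1BBL, is a membrane ligand that costimulates T cells through Tnfrsf9 (4-1BB, CD137). It lies on the plus strand of chromosome 17 (57105325-57107757, GRCm38) and is not part of the Tnf cluster. PBS libraries held 123, 110 and 108 Tnfsf9 reads and LPS libraries 41978, 38681 and 41046. These correspond to 2.45 ± 0.122 CPM (SD, n = 3) and 1214 ± 33.6 CPM (SD, n = 3), again without any overlap of the groups. The log2 fold change of 8.95 (SE 0.05, edgeR adjusted p = 7.70e-25) ranked 32 among the tested genes, and the within-batch differences were 8.91 or more. The alternative methods DESeq2 and voom gave larger SEs for Tnfsf9, 0.085 and 0.095. The unnamed gene Gm11110 overlaps 192 bases of Tnfsf9 exons on the opposite strand, and the strand setting of the counting is not given. Gm11110 itself had a log2 fold change of 0.36 (SE 0.13, edgeR adjusted p = 0.0198).

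Transcripts of this family carry AU-rich elements to very different extents, and the bases below show this for the 4 called ligands that have the core motif and for Tnfsf10. AU-rich elements in 3′ untranslated regions (UTRs) are bound by proteins such as Zfp36 (tristetraprolin) that shorten the life of the mRNA. The motif TATTTAT was counted on the transcript strand, overlapping matches included, in the longest 3′ UTR of each gene of the GENCODE M21 annotation; capitals mark it, and each window holds up to 30 bases of a longer UTR.
Tnf, chr17:35199678-35199707, minus strand: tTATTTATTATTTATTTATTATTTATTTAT
Tnfsf9, chr17:57107603-57107632, plus strand: aactggacttggTATTTATtctgagcatag
Tnfsf14, chr17:57190252-57190281, minus strand: atcaagctggggTATTTATgcttctgatgc
Tnfsf8, chr4:63832606-63832635, minus strand: actaaagaaaaaTATTTATtttggctcata
Tnfsf10, chr3:27339347-27339376, plus strand: ttttaccTATTTATcaTATTTATcactttc
The Tnf window alone holds 5 of the 8 copies in its 764-base UTR, and the longer motif TTATTTATT occurs 5 times in that UTR. Of 2661 genes with a 3′ UTR of similar length, 0.075% have as many copies of TATTTAT. Tnfsf9 has 2 copies in 253 bases, a number reached by 0.698% of 1718 genes of similar UTR length. Tnfsf14 has 1 copy in 1019 bases, Tnfsf8 has 3 in 2799 bases and Tnfsf10 has 3 in 3998 bases. At least as many copies occur in 24.967%, 8.273% and 12.417% of genes of similar UTR length, in that order. Tnfsf13b has 1 copy, and the 3′ UTRs of Ltb, Tnfsf12, Tnfsf13 and Tnfsf15 hold none. In all, 27.58% of 21037 genes have at least 1 copy and 7.653% have the longer motif. A link between the copies and the fold changes was not tested.

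Promoter bases for the 3 ligands called up that have a RefSeq entry, and for Ltb next to Tnf, were read from the RefSeq promoter table (GRCm38.p6). The table matched 8 of the 10 ligands and not Tnfsf9 and Tnfsf12. Up to 250 bases before the transcription start are given 5′ to 3′ on the gene's own strand, less any bases that GENCODE places inside the gene, and capitals mark TATAAA (Tnf), TGANTCA (Tnfsf14) and the NF-kB consensus (Ltb).
Tnf, chr17:35202008-35202257, minus strand: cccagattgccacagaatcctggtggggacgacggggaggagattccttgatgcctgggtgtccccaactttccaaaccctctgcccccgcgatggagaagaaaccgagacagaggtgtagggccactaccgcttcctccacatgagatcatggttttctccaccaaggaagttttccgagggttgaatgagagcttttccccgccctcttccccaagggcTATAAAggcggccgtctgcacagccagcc
Tnfsf14, chr17:57194182-57194431, minus strand: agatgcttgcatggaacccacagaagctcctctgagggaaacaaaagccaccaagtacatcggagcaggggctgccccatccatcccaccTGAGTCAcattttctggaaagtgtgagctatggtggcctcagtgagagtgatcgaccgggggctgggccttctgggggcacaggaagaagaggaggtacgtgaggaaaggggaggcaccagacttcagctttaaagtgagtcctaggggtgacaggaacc
Tnfsf15, chr4:63745114-63745309, minus strand: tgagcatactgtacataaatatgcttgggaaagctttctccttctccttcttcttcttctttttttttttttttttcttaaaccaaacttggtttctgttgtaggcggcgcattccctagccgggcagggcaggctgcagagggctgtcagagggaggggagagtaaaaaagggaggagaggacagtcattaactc
Ltb, chr17:35194257-35194438, plus strand: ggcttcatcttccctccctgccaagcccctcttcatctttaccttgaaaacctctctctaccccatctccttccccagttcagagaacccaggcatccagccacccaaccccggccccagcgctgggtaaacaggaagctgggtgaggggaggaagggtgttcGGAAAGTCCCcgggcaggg
TATAAA, the core of a TATA box searched on the sense strand, lies 29 bases before the Tnf start and occurs in 7.592% of 32851 promoters of the table. TGANTCA, a motif bound by AP-1 and searched on both strands like the rest, lies 160 bases before the Tnfsf14 start and occurs in 6.749% of promoters. Motifs were searched in all 250 bases before the RefSeq start, and positions are counted from that start. TGANTCA was also found for Tnfsf13 and Tnfsf13b, in bases that GENCODE places inside the gene. The levels of these ligands did not pass the test. The NF-kB consensus, present in 7.251% of promoters, was matched 87 bases before the Ltb start and in no other of these promoters. The printed Ltb bases end 68 bases before that RefSeq start, where GENCODE begins the gene. The Tnfsf15 promoter held none of the motifs searched, which were these 3, the CREB motif TGACGTCA, the interferon-stimulated response element core and GAGGAA, a core bound by ETS factors (1.546%, 2.977% and 23.253% of promoters). Such matches describe letters in these windows only.

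Among the other ligands with higher levels, Tnfsf14 encodes LIGHT, which binds Tnfrsf14 (HVEM) and Ltbr. Its counts were 195, 185 and 191 in PBS and 947, 898 and 823 in LPS, with a clear gap between the groups. Mean levels were 4.11 ± 0.0257 CPM in PBS and 26.6 ± 2.16 CPM in LPS (SD, n = 3 each). The log2 fold change was 2.70 (SE 0.08, edgeR adjusted p = 1.02e-15). Tnfsf15 encodes TL1A, the ligand of Tnfrsf25 (DR3). It was counted 143, 147 and 129 times in PBS and 325, 279 and 306 times in LPS, and its groups were also separate. With 3.02 ± 0.229 CPM in PBS and 9.07 ± 0.573 CPM in LPS (SD, n = 3 each), the log2 fold change was 1.59 (SE 0.10, edgeR adjusted p = 8.31e-11). Within batches, Tnfsf14 differed by 2.54 to 2.78 and Tnfsf15 by 1.39 to 1.69 on the log2 scale.

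Tnfsf8, which encodes CD30L, was the ligand called lower. Its neighbour 86.2 kb away on the same strand of chromosome 4 is Tnfsf15, which was called higher. Tnfsf8 was read 58, 52 and 53 times in PBS and 18, 17 and 13 times in LPS, and every LPS value lay under every PBS value. The LPS level was 0.480 ± 0.0850 CPM (SD, n = 3), and the log2 fold change against PBS was -1.29 (SE 0.23, edgeR adjusted p = 7.61e-05). Tnfsf10 encodes TRAIL, which can induce apoptosis through Tnfrsf10b. Its counts of 606, 511 and 553 in PBS and 254, 257 and 254 in LPS did not overlap after scaling either. The drop between 12.0 ± 0.708 CPM in PBS and 7.64 ± 0.213 CPM in LPS (SD, n = 3 each) passed the adjusted p but not the fold threshold (log2 fold change -0.65, SE 0.08, edgeR adjusted p = 6.08e-07).

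The remaining 4 ligands stayed within 0.60 of no change on the log2 scale. Tnfsf12 encodes TWEAK, the ligand of Tnfrsf12a (Fn14), and lies 0.5 kb from Tnfsf13 on the minus strand of chromosome 11. Tnfsf12 was counted 516, 550 and 540 times in PBS and 431, 455 and 435 times in LPS. Its log2 fold change was 0.19 (SE 0.07, edgeR adjusted p = 0.0255) with TMM scaling and -0.22 with library size alone, so the sign depended on the scaling. Without PBS replicate 1 the edgeR adjusted p was 0.111, and without LPS replicate 2 it was 0.114. Tnfsf13 was counted 237, 260 and 289 times in PBS and 210, 225 and 174 times in LPS, with overlapping levels and a log2 fold change of 0.10 (SE 0.11, edgeR adjusted p = 0.443). The read-through gene Tnfsfm13 shares 731 of the 1515 exon bases of Tnfsf12 and 983 of the 1637 of Tnfsf13 on the same strand, so the counts of both are uncertain. Tnfsfm13 had a log2 fold change of -0.06 (SE 0.14, edgeR adjusted p = 0.697).

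Tnfsf13b, which encodes the B cell survival factor BAFF, was counted 114, 106 and 120 times in PBS and 77, 113 and 85 times in LPS. Its log2 fold change was 0.17 (SE 0.15, edgeR adjusted p = 0.342), and without LPS replicate 2 it was -0.029. Ltb encodes lymphotoxin beta, which forms membrane trimers with lymphotoxin alpha, the product of Lta, and binds Ltbr. Ltb was counted 21, 19 and 24 times in PBS and 18, 34 and 18 times in LPS. The high LPS value came from replicate 2. The log2 fold change of 0.60 (SE 0.30, edgeR adjusted p = 0.0882) had a 95% interval of -0.037 to 1.23, and without LPS replicate 2 it was 0.21. Although Ltb and Tnf are neighbours, the ratio of Tnf to Ltb moved 78.4-fold.

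**Figure D2:**
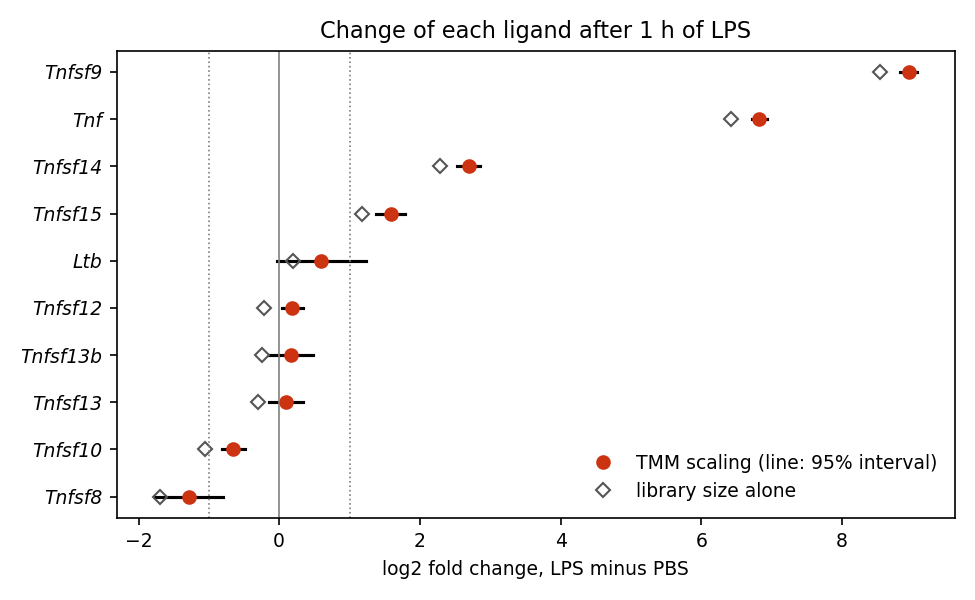
Log2 fold change of LPS over PBS for each ligand with TMM scaling (red points, 95% intervals as lines) and with library size alone (open diamonds), with dotted lines at 1 and -1. The intervals use the edgeR SE, which for Tnfsf9 was 0.05, against 0.085 with DESeq2. Tnfsf9 (8.95) and Tnf (6.83) lie far to the right, and Tnfsf12, Tnfsf13 and Tnfsf13b change sign between the scalings.

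Within each library, the ratio of Tnf to another ligand does not depend on the scaling of the library. Tnf reads outnumbered Tnfsf9 reads 8.19, 8.50 and 8.07 times in PBS and 1.88, 1.94 and 1.87 times in LPS. Per exon length the ratio was 6.44, 6.69 and 6.35 in PBS and 1.48, 1.53 and 1.47 in LPS. The log2 ratio thus dropped by 2.12, or 4.33-fold toward Tnfsf9, and the groups were wide apart. Against the other 8 ligands the log2 ratio moved toward Tnf, least against Tnfsf14 (4.14) and Tnfsf15 (5.24). It moved by 6.29 against Ltb, 6.64 against Tnfsf12, 6.68 against Tnfsf13b and 6.73 against Tnfsf13. The shifts against Tnfsf10 (7.48) and Tnfsf8 (8.10) were larger than the fold change of Tnf itself, since both had lower levels in LPS. For each of the 9 ratios the exact two-sided permutation test gave p = 0.1 (0.1 after Benjamini-Hochberg adjustment over the 9), the smallest p that 3 against 3 libraries allow.

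The order of the ligands by CPM per kb of exon differed between the groups. In PBS, Tnf was highest at 12.4 ± 0.726, followed by Tnfsf12 (7.64 ± 0.448), Tnfsf13 (3.46 ± 0.396), Tnfsf10 (2.28 ± 0.134), Tnfsf14 (2.23 ± 0.0139), Tnfsf9 (1.90 ± 0.0948), Tnfsf15 (0.902 ± 0.0685), Tnfsf13b (0.356 ± 0.0197), Tnfsf8 (0.308 ± 0.0104) and Ltb (0.304 ± 0.0347; SD, n = 3 throughout). The ranges over libraries overlapped for Tnfsf10 and Tnfsf14 and for Tnfsf8 and Ltb. In LPS the order was Tnf (1405 ± 30.4), Tnfsf9 (941 ± 26.0), Tnfsf14 (14.4, range 13.1 to 15.3), Tnfsf12 (8.71 ± 0.430), Tnfsf13 (3.72 ± 0.551), Tnfsf15 (2.71 ± 0.171), Tnfsf10 (1.45 ± 0.0405), Ltb (0.463 ± 0.194), Tnfsf13b (0.401 ± 0.0908) and Tnfsf8 (0.126 ± 0.0223; SD, n = 3 wherever a ± is given), where Ltb and Tnfsf13b overlapped. The place of Tnf in PBS depended on the treatment of shared exons. With only the exon bases that no other gene holds on the same strand, a choice made after seeing the data, Tnfsf12 reached 14.8 ± 0.865 CPM per kb in PBS, above Tnf at 12.4 ± 0.726 (SD, n = 3 each).

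Of the summed CPM per kb of the 10 ligands, Tnf made up 40.8%, 39.1% and 36.9% in the PBS libraries and 58.9%, 59.6% and 58.8% in the LPS libraries. The share of Tnfsf9 went from 5.99% ± 0.300 to 39.6% ± 0.505 (SD, n = 3 each). The other 8 ligands together held 55.1% ± 2.26 in PBS and 1.35% ± 0.0832 in LPS (SD, n = 3 each), although 2 of them, Tnfsf14 and Tnfsf15, were called higher.

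**Figure D3:**
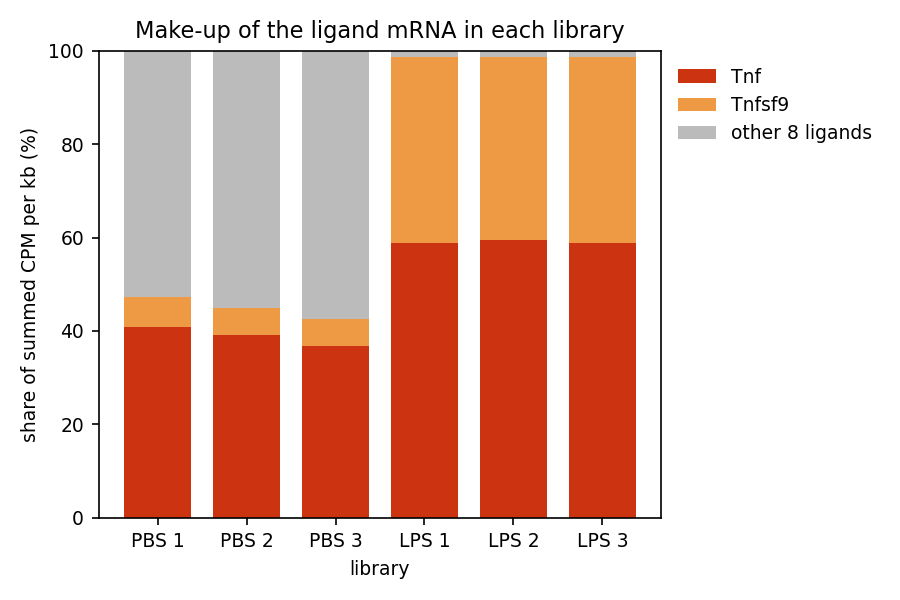
Share of each library's summed CPM per kb over the 10 ligands, in percent, for Tnf, Tnfsf9 and the other 8 ligands, with a stacked bar per library. Tnf and Tnfsf9 fill nearly the whole bar in the 3 LPS libraries, leaving 1.35% on average to the other 8.

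Of the 9 other ligand genes of the family, 2 passed the filter, Tnfsf4 and the read-through gene Tnfsfm13. Tnfsf4, which encodes OX40L, a T cell costimulatory ligand, held 7, 7 and 4 reads in PBS and 1305, 1214 and 1310 in LPS. Its log2 fold change was 8.17 (SE 0.12, edgeR adjusted p = 2.40e-20), between those of Tnfsf9 and Tnf, but the gene passed the filter only through its LPS libraries. With so few PBS reads this SE is too small. DESeq2 gave an SE of 0.35, and the within-batch differences ran from 7.81 to 8.63. Tnfsfm13, described above, held 115 to 121 reads in PBS and 75 to 94 in LPS. The other 7 were at 12 reads or fewer in every library. Lta held at most 1 read in PBS and 5, 4 and 2 in LPS, Tnfsf18 held 6 to 12 reads in every library, and Tnfsf11 held 1 to 4. Eda held 1 to 6 reads. Cd70, which lies between Tnfsf9 and Tnfsf14, held 0 reads in each PBS library and 3, 3 and 0 in LPS. Fasl and Cd40lg, like Cd70, did not exceed 3 reads in any library, and 3 reads correspond to 0.0630 to 0.0919 CPM.

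Receptors of the 10 ligands were measured in the same cells. Of 15 receptor genes, 12 were tested and 4 were called up, beside 10.5% of all tested genes called up. The 4 include Tnfrsf9, which entered the test only through its LPS libraries and had to differ, and without it 3 were called up. The median log2 fold change of the 12 was 0.49. Of the Tnf receptors, Tnfrsf1b (TNFR2) rose from 521 ± 12.3 to 1535 ± 20.7 CPM (SD, n = 3 each; log2 fold change 1.56, SE 0.03, edgeR adjusted p = 1.55e-17). Tnfrsf1a (TNFR1), which carries a death domain, was at 80.1 ± 0.662 and 107 ± 0.510 CPM, a log2 fold change of 0.41 that became 0.0063 with library size alone. Tnfrsf9, the receptor of Tnfsf9, held 7, 9 and 2 reads in PBS and 47, 35 and 41 in LPS (log2 fold change 3.21, SE 0.34, edgeR adjusted p = 1.76e-07). Tnfrsf8, the receptor of Tnfsf8, rose by 1.73 on the log2 scale (SE 0.12, edgeR adjusted p = 4.72e-10), opposite to its ligand. Tnfrsf12a, the receptor of Tnfsf12, had a log2 fold change of 1.09 (SE 0.07, edgeR adjusted p = 1.92e-10), and the call was lost when scaling by library size alone (0.69) or by the upper quartile (0.95).

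Ltbr, which binds both Ltb and Tnfsf14, and Tnfrsf14, which binds Tnfsf14, had slightly lower levels in LPS by adjusted p alone, with log2 fold changes of -0.28 for Ltbr (SE 0.04, edgeR adjusted p = 5.50e-06) and -0.29 for Tnfrsf14 (SE 0.05, edgeR adjusted p = 2.91e-05). The receptors of Tnfsf10 had log2 fold changes of 0.82 (Tnfrsf10b), 0.50 (Tnfrsf22) and 0.49 (Tnfrsf23), past the adjusted p and under the fold threshold. With library size alone these were 0.42, 0.10 and 0.08. Tnfrsf13b (TACI), which binds Tnfsf13 and Tnfsf13b, differed by -0.036 (SE 0.05, edgeR adjusted p = 0.548). Tnfrsf17 (BCMA) held 5 to 19 reads per library and passed the filter only through its PBS libraries. Tnfrsf13c held 3 to 10 reads and Tnfrsf25 at most 5. Tnfrsf11b, a soluble decoy receptor, was at 0 reads in all PBS libraries and at 5, 4 and 8 in LPS, and was not tested. Its mean CPM in LPS was 2.61 times the mean that 3 reads per library would give in PBS.

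**Figure D4:**
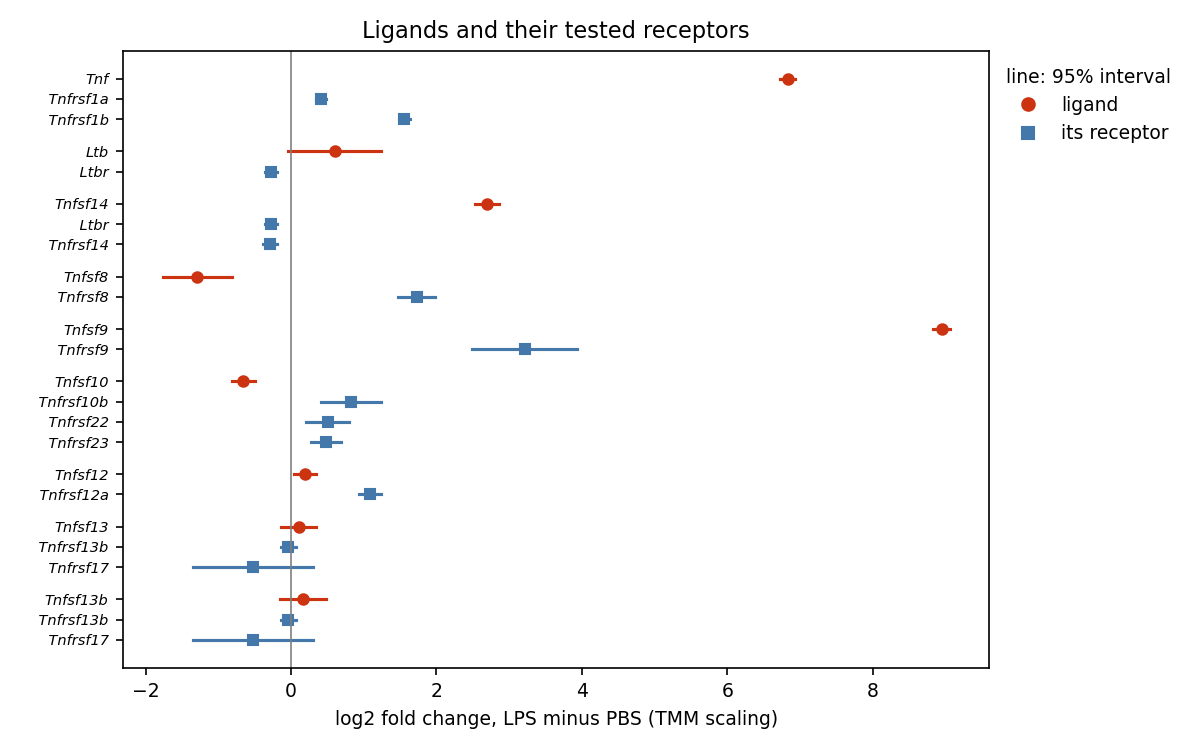
Log2 fold change of LPS over PBS with TMM scaling for 9 ligands (red circles) and their tested receptors (blue squares), with 95% intervals as lines. The intervals use the edgeR SE, which for Tnfsf9 was 0.05, against 0.085 with DESeq2. Tnfsf15 is not drawn because its receptor Tnfrsf25 was not tested. Tnfsf9 and Tnfrsf9 both lie to the right of 0 (8.95 and 3.21, where Tnfrsf9 passed the filter only through its LPS libraries), and Tnfsf8 and Tnfrsf8 lie on opposite sides (-1.29 and 1.73). Tnfrsf17 passed the filter only through its PBS libraries.

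Of 8 genes that process or release ligands of this family, all 8 were tested and 2 were called up, beside 10.5% of all tested genes. Rhbdf2 (iRhom2), which carries the Tnf-cleaving protease Adam17 to the cell surface, rose by 1.70 on the log2 scale (SE 0.04, edgeR adjusted p = 7.74e-17). Furin, a protease that cleaves Tnfsf12, Tnfsf13 and Tnfsf13b precursors, rose by 1.16 (SE 0.05, edgeR adjusted p = 2.33e-13), but with library size alone its log2 fold change was 0.75 and Rhbdf2 was the only 1 called. The other 6, Adam17 among them with 0.49 (SE 0.03, edgeR adjusted p = 1.36e-10), stayed under the fold threshold, and the median of the 8 was 0.33 with TMM scaling. With library size alone Adam17 was at 0.09 and the rest of these 6 had negative values.

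Genes that bind AU-rich elements or regulate decay of such mRNA were all tested (11 of 11), with 4 called up and 1 down, beside 10.5% and 10.4% of all tested genes. Their median log2 fold change was 0.62. Zfp36, which promotes decay of Tnf mRNA, rose from 57.4 ± 2.52 to 1099.6 ± 3.19 CPM (SD, n = 3 each; log2 fold change 4.26, SE 0.04, edgeR adjusted p = 1.05e-22). Zc3h12a (Regnase-1), an RNase of inflammatory transcripts, rose by 3.59 (SE 0.05, edgeR adjusted p = 7.77e-21) on that scale, and the Zfp36 relative Zfp36l1 by 1.70 (SE 0.04, edgeR adjusted p = 6.52e-18). Mapkapk2, the kinase that phosphorylates Zfp36, rose by 1.41 (SE 0.04, edgeR adjusted p = 1.31e-16). Tia1, a translational repressor of Tnf mRNA, had a log2 fold change of -1.14 (SE 0.06, edgeR adjusted p = 3.06e-12). These levels were measured beside those of the ligands, and a link between them was not tested.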

How the data were processed

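Total RNA of 3 PBS and 3 LPS BMDM samples was sequenced by the authors as stranded, paired-end libraries. Per the labels, the authors used FastQC 0.11.9, HISAT2 2.1.0, SAMtools 1.17 and featureCounts 2.0.0 on GRCm38, and deposited raw read counts per gene without normalization. The gene annotation, strand setting and treatment of multiply mapped reads are not given in the sources used here. Of 55335 gene identifiers, 55154 matched GENCODE M21 without the version suffix, from which symbols, positions and exon lengths were taken.

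From the counts, genes were filtered with filterByExpr, scaled by TMM and tested for LPS against PBS in edgeR 4.0.16 (quasi-likelihood test, Benjamini-Hochberg adjustment over 15687 genes). The script was tested on simulated data. Ratios of Tnf to each ligand used a pseudocount of 0.5 and an exact permutation test. Alternatives were DESeq2 1.42.0, voom in limma 3.58.1, other scalings and filters, a replicate block and each library left out. Named genes were the 10 ligands, the other ligands, the receptors, the called or largest changes of the processing and AU-rich element lists, and the 5 genes nearest to Tnf, 1 of which is not reported here. The members and lists were chosen with earlier results of these data known.

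The replicate numbers of the labels are called batches here. Deviations from the group means correlated at -0.0139, 0.0822 and 0.0387 between same-numbered libraries. The mean was 0.0357 for the same number and -0.0178 for different numbers. Pairs of libraries within a group differed by 5.2 to 19.4 times counting noise (chi-square per degree of freedom), so none was a duplicate. LPS 3 stood furthest apart, at 13.2 against LPS 1 and 19.4 against LPS 2, where LPS 1 against LPS 2 gave 5.2. Floors and intervals of counts cover counting error only.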

Additional observations from a re-analysis of the deposited data

How the results depend on the processing

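Tnf, Tnfsf9, Tnfsf14, Tnfsf15 and Tnfsf8 were called in 16 of 16 fits, and 144 alternative fold changes of the ligands kept their sign and side of the threshold, 5 changed sign and 1 became called. With library size alone, which lowered the median log2 fold change of all genes by 0.40, Tnfsf12 was at -0.22, Tnfsf13 at -0.30 and Tnfsf13b at -0.24, Tnfsf10 at -1.06 became the second ligand called down (2 in all), and 2964 genes were called down in all. Called-up genes were then 29.0% of all calls in place of 50.4%. Upper quartile scaling put Tnfsf13 at -0.040 and the called-up share at 42.6%, and leaving out LPS replicate 2 put Tnfsf13b at -0.029. A filter of 10 counts in every library left 1027 genes called down, as fewer genes were tested. With a library left out in turn, Tnf ranged from 6.78 to 6.86, Tnfsf9 from 8.91 to 8.99, Ltb from 0.21 to 0.76 and Tnfsf13b from -0.029 to 0.28. Without division by length the Tnf share was 32.05% in PBS and 64.26% in LPS. The 2 alternatives chosen after seeing the data gave 28.07% in PBS (unshared exon bases) and 58.53% in LPS (the 9 other ligands added). All 81 alternative Tnf ratios kept their direction.

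With the replicate number as a block, Tnf had a log2 fold change of 6.83 and the ligands again numbered 4 called up and 1 down; the block changed no call of a ligand. Depth limits Ltb and Tnfsf8, at 13 to 58 reads a library.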

Other observations

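Among 15675 genes, those outside the family whose pattern over the 6 libraries was near to Tnf, by Euclidean distance between centred log2 CPM, included Csrnp1 (0.112), Acod1 (0.156), Tnfaip3 (0.218) and Rnd1 (0.333). Their log2 fold changes of 6.83, 6.94, 6.70 and 6.79 lay close to the 6.83 of Tnf. Acod1 encodes the enzyme that makes itaconate and Tnfaip3 the NF-kB inhibitor A20. With 6 libraries in 2 groups, this distance measures mostly the size of the difference between the groups.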
